A study of Mus musculus with 4 samples.

Results

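The megabase lamina-associated domains (LADs) of WT mouse hepatocytes are the intervals of the WT LAD list that spanned at least 1000000 bases. There were 322 of them among 8107 WT LADs (3.97%), and together they held 639.9 Mb, or 43.5% of all WT LAD bases. They were selected on their length in the WT list alone. Their length is therefore not a result, and what is described here is where the LADs of *Tm7sf2*-KO hepatocytes lay within them, which genes they held and what their sequence was.

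The lists came from LaminB1 DamID on primary hepatocytes of C57BL/6 mice aged 12 to 16 weeks, either WT or *Tm7sf2*/NET47 KO. Hepatocytes of both genotypes were freshly isolated, kept in serum-free medium with hormones and growth factor, and transduced with lentivirus carrying LaminB1-Dam or the unfused Dam control. Each of the 4 libraries (LaminB1-Dam and Dam for each genotype) was made from the pooled DNA of 4 mice. Each genotype was thus represented by 1 library pair and 1 LAD list, so no spread between animals or cultures can be given, no test between the genotypes was made, and every difference below is one between 2 lists. The KO libraries were sequenced less deeply than the WT libraries, according to the study, and the part of depth in any of these values was not tested. The lists hold borders only, with no signal for any region.

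LADs are long stretches of chromatin that contact the nuclear lamina, the protein meshwork under the inner nuclear membrane. They are typically poor in genes and in G and C, and the genes they hold are mostly silent in the cell studied, such as sensory receptor clusters and long neuronal genes in liver. Tm7sf2 (NET47) is a transmembrane protein of the nuclear envelope (NE) and endoplasmic reticulum that is abundant in liver and also acts as a sterol reductase. In DamID the fusion protein methylates the adenine of GATC in chromatin near the lamina, so position is read from DNA fragments that run from 1 GATC to the next, and the borders of LADs can be placed no more finely than these sites.

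The sequence at the borders shows how this looks, although borders at GATC sites follow from the method and are not a result. The 50 bases around each end of the longest megabase LAD, chr6:73322935-81696532, and around each end of the longest KO gap inside any megabase LAD, chr19:52071629-52216704, are given below, on the plus strand of the mm9 genome (NCBIM37), with GATC in capitals and the border between its T and C.
Longest LAD, start (chr6:73322910-73322959): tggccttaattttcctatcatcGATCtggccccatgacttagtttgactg
Longest LAD, end (chr6:81696508-81696557): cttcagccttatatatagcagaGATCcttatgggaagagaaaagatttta
Longest KO gap, start (chr19:52071604-52071653): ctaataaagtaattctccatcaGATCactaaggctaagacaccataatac
Longest KO gap, end (chr19:52216680-52216729): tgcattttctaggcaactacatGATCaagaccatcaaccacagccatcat
Each window held 1 GATC, at its centre. Of the 644 ends of megabase LADs, all but 7 (637) lay within 4 bases of a GATC, and so did all 5730 ends of the KO gaps inside them.

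The megabase LADs remained largely lamina-associated in KO hepatocytes, but in pieces. KO LADs covered 594.6 of their 639.9 Mb, which left 45.3 Mb, or 7.09% of the bases, in no KO LAD (lost bases). This share was 9.12% in the 387 WT LADs of 500 to 1000 kb, 15.96% in the 1622 of 100 to 500 kb and 31.3% in the 5776 of 10 to 100 kb. Although they made up 43.5% of WT LAD bases, megabase LADs held 23.9% of all bases that left LADs in the KO. Among the megabase LADs themselves the lost share was 7.33% in the 79 LADs of 1 to 1.25 Mb, 6.94% in the 53 of 1.25 to 1.5 Mb, 6.83% in the 73 of 1.5 to 2 Mb, 6.53% in the 76 of 2 to 3 Mb and 7.82% in the 41 longer ones. It was thus slightly lower in each longer group up to 3 Mb and highest in the longest.

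Single megabase LADs lost between 0% and 51.2% of their bases, with a median of 6.21% and quartiles of 4.03% and 8.75%. In 268 of the 322, less than 10% was lost, in 49 between 10% and 20%, and in 5 over 20%. Over all WT LADs, 43.4% lost more than 20% of their bases. Around the length limit, the 3 shortest megabase LADs, of 1007 to 1012 kb, lost 6.11%, 10.6% and 27.7%, and the 3 WT LADs just below it, of 987.2 to 995.1 kb, lost 0%, 2.97% and 5.07%.

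**Figure D1:**
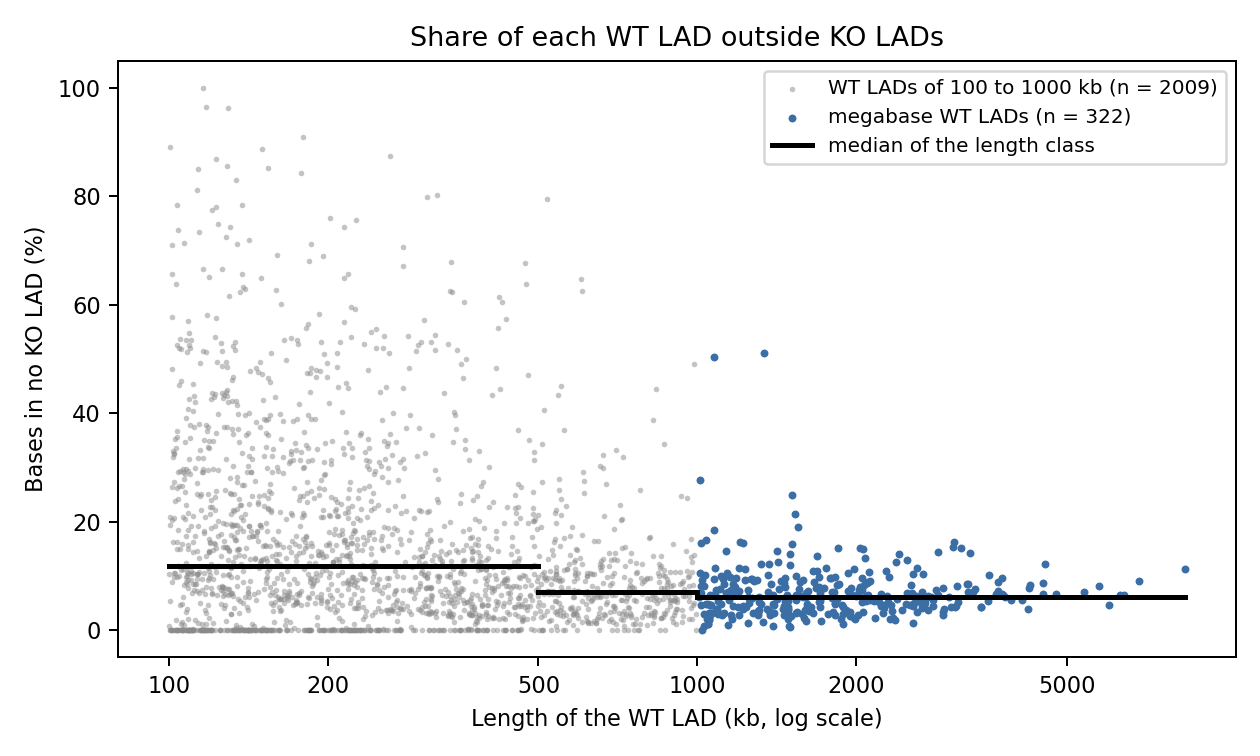
Share of each WT LAD that lay in no KO LAD (%, vertical axis) against its length in the WT list (kb, log scale), 1 point for each WT LAD of at least 100 kb. Black lines mark the medians of the length classes, 11.8% for 100 to 500 kb, 7.02% for 500 to 1000 kb and 6.21% for the 322 megabase LADs (blue), of which 2 lie just over 50%.

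Nearly every megabase LAD was broken up in the KO list, but that list was more finely divided as a whole, with 16076 LADs against 8107 in WT. The megabase LADs were also picked as unbroken in the WT list, so breaks could appear only in the KO list. A median of 8 KO LADs (range 1 to 57) overlapped a megabase LAD, and 320 of the 322 held at least 2. This was also true of 92.0% of WT LADs of 500 to 1000 kb and 70.7% of those of 100 to 500 kb. It was true of 11.7% of those of 10 to 100 kb and 30.8% of WT LADs of any length. Per Mb there were 4.98 KO pieces, against 6.44 in LADs of 500 to 1000 kb, 10.6 in those of 100 to 500 kb and 28.1 in those of 10 to 100 kb, a measure that also counts each unbroken short LAD as a piece. The 3187 KO pieces had a median length of 114 kb (quartiles 45.3 and 250 kb). The longest piece in a megabase LAD covered a median of 32.2% of it and exceeded 500 kb in 196 LADs. Only 24 megabase LADs kept an unbroken KO piece of at least 1 Mb. The KO list held 39 LADs of this length in all, and 34 of them overlapped a megabase WT LAD.

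The breaks were short. KO gaps with a KO piece on both sides (interior gaps) numbered 2865, had a median length of 11.6 kb and took up 6.70% of the bases. The shortest was 8002 bases long, 1519 were under 12 kb, 498 were at least 20 kb and 31 at least 50 kb. Lengths thus crowded just above the shortest value, and whether shorter breaks could be called at all is not known from the lists. The median length of interior gaps was close to that in LADs of 500 to 1000 kb (11.7 kb) and of 100 to 500 kb (12.7 kb). These medians all lay near the shortest value, so their closeness may say little of the breaks. Interior gaps numbered 4.48 per Mb, against 5.01 and 6.13 in these classes. In LADs of 10 to 100 kb, most of which held a single KO piece, there were 3.67 per Mb. A further 195 lost stretches lay at an end of a LAD, with a median of 8.41 kb and 0.387% of the bases. When KO LADs were joined across gaps of up to 20 kb, the median number of pieces was 2 and the lost share 2.77%. The same step, chosen after seeing the data, left 10.3% lost in LADs of 100 to 500 kb.

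Lost bases were more frequent near the ends. Within 25 kb of an end, 17.4% of megabase LAD bases were lost, then 10.99% at 25 to 50 kb, 8.72% at 50 to 100 kb, 6.88% at 100 to 250 kb, 6.35% at 250 to 500 kb and 6.64% deeper than 500 kb. At the same distances WT LADs of 100 to 500 kb lost more (21.04%, 17.2%, 14.8% and 11.8% from the end inwards). LADs of 500 to 1000 kb lay close to the megabase LADs, at 16.9% within 25 kb, 11.7% at 25 to 50 kb, 10.6% at 50 to 100 kb, 8.13% at 100 to 250 kb and 7.32% beyond. Away from the ends the megabase LADs thus still lost a smaller share than LADs of 100 to 500 kb, while in the outermost 25 kb they lost slightly more than those of 500 to 1000 kb.

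**Figure D2:**
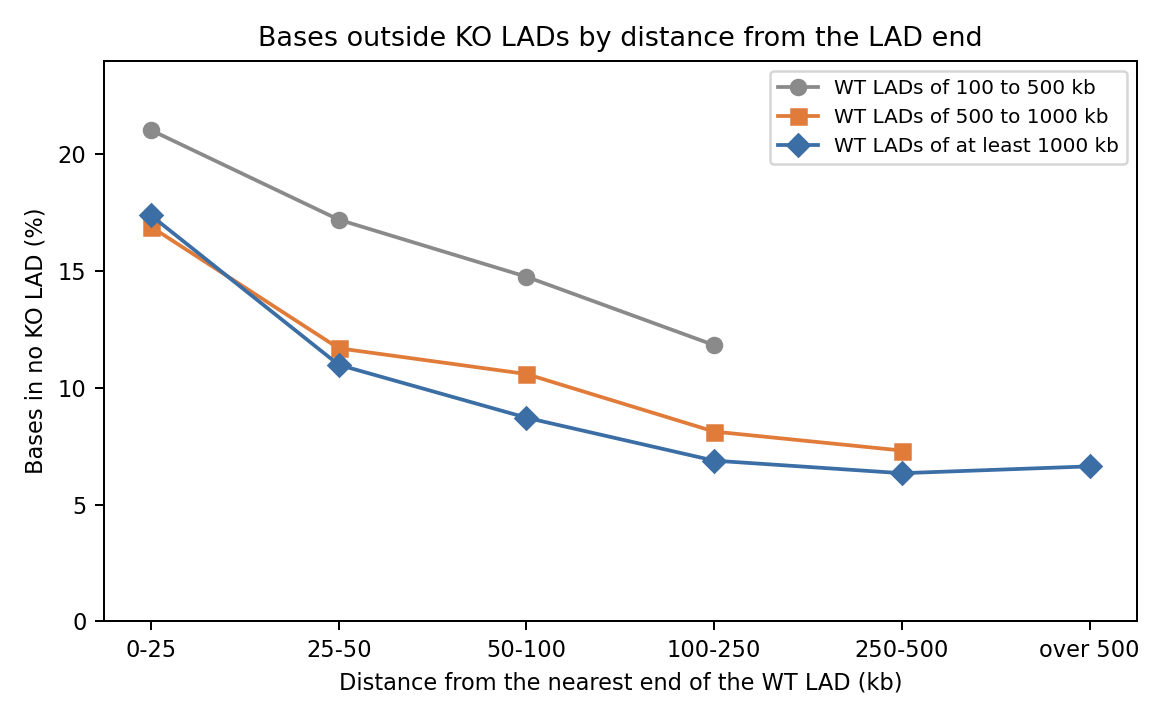
Share of WT LAD bases in no KO LAD (%) by distance from the nearest end of the WT LAD (kb), for 3 length classes of WT LADs, each point pooled over all LADs of the class that reach that distance. Megabase LADs (blue) fall from 17.4% at the ends to between 6.35% and 6.88% beyond 100 kb, below the 100 to 500 kb class at each distance and near the 500 to 1000 kb class.

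The ends themselves moved in both directions. Of the 644 ends, 20 were at the same base in both lists, 429 lay inside a KO LAD that ran on past the WT border by a median of 50.03 kb, and 195 lay in no KO LAD, with the first KO piece a median of 8.41 kb further in. At 280 ends the KO LAD crossed the whole WT gap and entered the next WT LAD. These crossed WT gaps had a median of 11.4 kb, against 28.9 kb at the other 362 ends with a WT LAD beyond. Of the 16.5 Mb of non-LAD sequence within 50 kb of an end, 45.7% lay in KO LADs, compared with 17.5% of all bases outside WT LADs. No such share is given here for the ends of shorter WT LADs. Megabase LADs in the KO list were therefore divided inside and, at 280 of the 642 ends with a WT LAD beyond, joined to a neighbour. When the length rule was applied to the KO list instead, its 39 LADs of at least 1 Mb had 1.49% of their bases outside WT LADs and a median of 1 WT LAD each.

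The 10 longest megabase LADs, of 4516 to 8374 kb, showed the pattern at full scale. The longest, chr6:73322935-81696532, was covered by 57 KO LADs and lost 11.4% of its bases in 56 gaps of up to 60.0 kb. It held 13 protein-coding genes, among them the cluster of Reg genes, which encode secreted lectins of gut and pancreas, *Lrrtm1* and *Lrrtm4*, synaptic adhesion molecules, and *Ctnna2*, the neuronal alpha-catenin. The second, chr8:98448240-105300946, held 39 KO LADs and lost 9.16%. Next came chr1:113766003-120186770, which lost 6.49% and held 1 protein-coding gene, and chr2:95134271-101456894, which lost 6.54% and held 4. The smallest loss among the 10 was 4.69%, on chr1:145855632-151869779, a region with several Rgs genes, which encode regulators of G protein signalling. The highest was 12.2%, on chr11:35858812-40410367, whose only protein-coding gene was *Odz2*, encoding the adhesion protein teneurin-2.

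**Figure D3:**
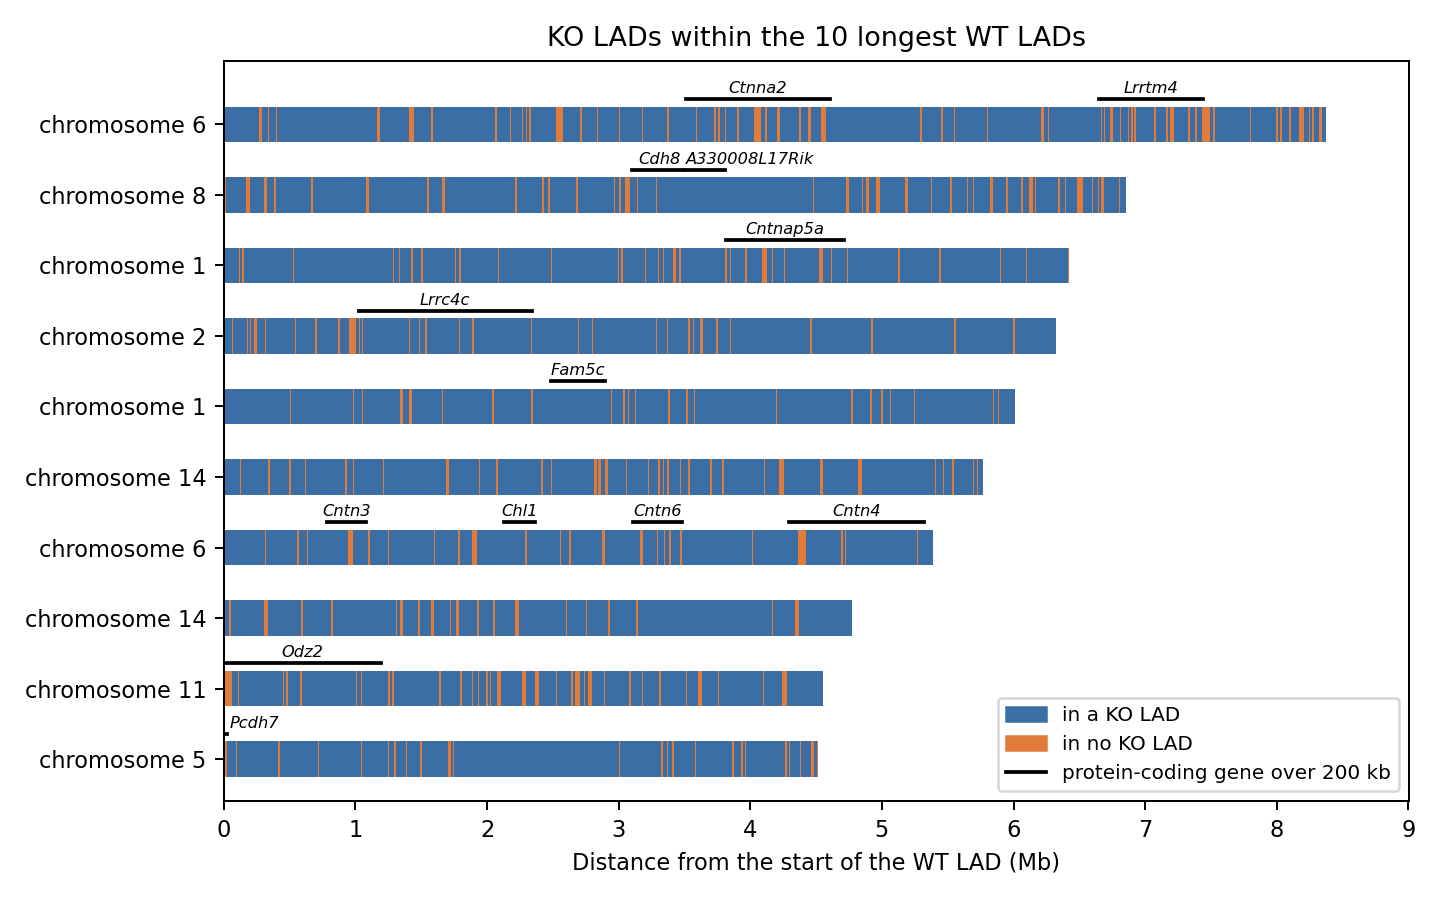
The 10 longest WT LADs drawn to scale from their start (distance in Mb), with bases in a KO LAD in blue, bases in no KO LAD in orange and protein-coding genes over 200 kb as black lines. The gaps are short and spread along each LAD, and the uppermost LAD, the longest at 8374 kb, holds 56 of them.

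Long genes in these 10 LADs differed in how far the KO gaps reached into them. *Lrrtm4* (791 kb) had 23.4% of its span in 13 gaps, *Cntn6* (371 kb) 20.7% in 5 gaps and *Ctnna2* (1098 kb) 19.4% in 11 gaps. *Cntnap5a* (897 kb) had 14.3% in gaps, *Odz2* (1229 kb) 11.1%, *Cntn3* 10.6% and *Cntn4* (1022 kb) 9.22%. These genes encode cell adhesion proteins of neurons. Part of the *Odz2* share was a lost stretch at the end of its LAD. *Lrrc4c*, the netrin-G1 ligand, had 6.01% in gaps, *Cdh8*, a classical cadherin, 4.82% and *Chl1*, a neural adhesion molecule, 4.28%. *Fam5c* (407 kb) and *A330008L17Rik* (317 kb) lay wholly in 1 KO LAD each. Only 5.71% of *Pcdh7*, a protocadherin, was inside its megabase LAD, and most of that piece was lost.

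At the upper end of retention, chr1:7138299-8159826 was the only megabase LAD without a lost base, lying entirely in 1 KO LAD. It held no protein-coding transcription start, only part of *Pcmtd1*. The next 4 each lost less than 1% and held 2 KO pieces. They were chr7:67002206-68497429, with the imprinted splicing gene *Snrpn* (0.617%), chr2:138109617-139500977, with *Btbd3* (0.792%), chr1:67275175-68768979, which held most of *Erbb4*, a neuregulin receptor, and the last 2.46% of *Cps1* (0.796%), and chr3:152521403-153548607 (0.844%).

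At the lower end, 2 LADs kept less than 50% of their bases in KO LADs. The LAD chr19:51141958-52478910 lost 51.2% and was left in 18 pieces of up to 128 kb. It held 1 protein-coding gene, *Ins1*, encoding insulin. The LAD chr11:111400549-112474161 lost 50.4% and was left in 17 pieces of up to 70.5 kb, with *Gm11678* as its only protein-coding gene. Next came chr17:3582244-4594592 with 27.7% lost (*Nox3*, an NADPH oxidase of the inner ear), chr5:133021103-134534223 with 24.99% (no protein-coding gene) and chr7:131002650-132533256 with 21.4% (*Hs3st4*, a heparan sulfate sulfotransferase, and 4 others). All 5 of these LADs were under 1.6 Mb long.

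The 5 longest interior gaps all lay in these strongly broken LADs and contained no protein-coding gene. They were chr19:52071629-52216704 (145 kb, 122 kb from *Ins1*), chr11:111886036-112022013 (136 kb), chr11:112180661-112280108 (99.4 kb), chr19:51371268-51456648 (85.4 kb) and chr5:133582840-133663224 (80.4 kb). Each contained between 197 and 325 GATC sites. The 5 longest KO pieces differed in gene content. The piece of 1720 kb at chr1:104664496-106384357 also held no protein-coding gene, that of 1606 kb at chr7:22834380-24439919 held 39, with a cluster of vomeronasal receptors of the Vmn1r family among them, and that of 1421 kb at chr10:128552023-129972930 held 58, mostly olfactory receptors. The other 2 of the 5 longest were chr3:158160390-159598896 (1439 kb), with *Lrrc7*, *Depdc1a*, *Rpe65* and *Wls*, and chr1:17626222-19043824 (1418 kb), with *Crispld1*, *Crisp4*, *Defb18*, *Defb41* and *Gm15386*.

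The order held chromosome by chromosome. Megabase LADs lost a smaller share than the shorter WT LADs on each of the 21 chromosomes, and also a smaller share than the parts of the shorter LADs lying at least 50 kb from an end. The second difference was very small on some chromosomes, such as 8.573% against 8.581% on chromosome 8 and 9.11% against 9.16% on chromosome 18. It was wider on others, such as 3.91% against 9.11% on chromosome 13. Over whole LADs on chromosomes 1 to 18 and X, megabase LADs lost from 3.91% (chromosome 13) to 12.5% (chromosome 11). Shorter LADs there lost from 9.69% (chromosome 2) to 26.9% (chromosome 11). Chromosome 19 stood apart, with a single megabase LAD, 51.2% lost there and 61.4% lost in its shorter LADs. Megabase LADs made up 2.18% of chromosome 19, compared with 16.96% to 30.8% of chromosomes 1 to 18 and X. Without chromosome 19 the lost share of megabase LADs was 6.99%. The X chromosome had 19 megabase LADs, with 9.19% lost and a median of 14 pieces, and the Y chromosome had 1, with 9.51% lost.

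Genes were sparse in megabase LADs, and much of what they held were sensory receptors. By the annotation of the same genome build, 1933 of 22367 protein-coding genes had their transcription start in a megabase LAD, which gives 3.02 per Mb against 8.42 per Mb over all chromosomes. The other length classes held 3.46 (500 to 1000 kb), 3.97 (100 to 500 kb) and 3.87 per Mb (10 to 100 kb). Olfactory and vomeronasal receptor genes, which encode the odorant and pheromone receptors of the nose, accounted for 907 of the 1933 starts (46.9%), although they lay in only 27 of the LADs. Without them the density was 1.60 per Mb, against 7.88 per Mb over all chromosomes. In 61 megabase LADs there was no start at all, in 204 there were 1 to 5, and in 26 more than 20. The 3 with the most starts were chr2:85093853-87770229 (123), chr2:87779878-90022399 (98) and chr7:109672628-111064294 (85). They lost 5.59%, 3.26% and 4.91% of their bases.

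The LADs richest in starts were less broken than the rest. The 26 with more than 20 starts, of which 20 held mostly olfactory or vomeronasal receptor genes, lost 4.52% of their bases and had 2.90 interior gaps per Mb. The 61 without a start lost 7.19%, with 4.64 gaps per Mb, and the 204 with 1 to 5 starts lost 7.43%, also with 4.64 per Mb. The 31 with 6 to 20 starts lost 6.68%, with 4.36 per Mb. Single LADs overlapped widely between these groups, at 1.09% to 10.2% in the first, 0% to 24.99% in the second, 0.617% to 51.2% in the third and 0.91% to 14.6% in the fourth. How reads were shared between near-identical receptor copies is not known from the lists.

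Of the 1933 starts in megabase LADs, 106 lay in a KO gap, a share of 5.48% (95% Wilson interval 4.55% to 6.59%, which covers counting error only). The interval treats starts as independent, although 907 of them were receptor genes in 27 LADs, so it may be too narrow. Over WT LADs of any length the share was 11.5%. It was 6.07% in LADs of 500 to 1000 kb, 14.6% in those of 100 to 500 kb and 28.0% in those of 10 to 100 kb, beside 9.12%, 15.96% and 31.3% of the bases of these classes, so the share of starts was the lower of the pair in each class. This difference was not tested. Without olfactory and vomeronasal receptor genes the share in megabase LADs was 6.43%, close to the 7.09% of bases. The 106 starts lay in 84 interior gaps and in lost stretches at the ends. Only these 84 of the 2865 interior gaps held a protein-coding start, 317 touched an exon, and 2139 overlapped no protein-coding gene.

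By base content, interior gaps held somewhat more gene sequence than KO pieces and a similar share of exon sequence. Protein-coding genes covered 22.3% of the interior gaps and 18.7% of the KO pieces, and exons covered 0.628% and 0.652%. The lost stretches at the ends were richer, with 36.6% in genes and 2.73% in exons, against 37.5% and 2.90% over all chromosomes.

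Among the 1874 protein-coding genes lying wholly in a megabase LAD, 1582 were also wholly in KO LADs, 245 were partly in a KO gap and 47 wholly in one. The 47 were short, at most 7.60 kb, and 28 were olfactory, 3 vomeronasal and 2 bitter taste receptors. Such receptors were also common among all 1874 genes, with 755 olfactory, 149 vomeronasal and 24 bitter taste receptors. Genes wholly inside had a median length of 1.34 kb, compared with 15.4 kb for all protein-coding genes, but 40 exceeded 500 kb, of 200 such genes in the genome. Of the 170 with at least 100 kb, 33 had no KO gap, and the median share of span in gaps was 6.78%, close to that of all bases of the LADs.

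The 10 longest genes lying wholly in a megabase LAD all had their start in a KO LAD and between 1.74% and 19.4% of their span in gaps. *Lrp1b* (chr2:40450768-42509118, minus strand), a large lipoprotein receptor-related gene of 2058 kb, was crossed by 11 gaps that took 7.43% of its span and contained 11 of its 93 exons. *Csmd1* (chr8:15892537-17535586, minus strand), encoding a complement-regulating membrane protein, had 3.77% in 6 gaps with 3 of 74 exons. *Nrg3*, an ErbB4 ligand, had 11.8% in 10 gaps, and the neural adhesion gene *Cntn5* 3.97% in 4 gaps, in both with no exon in a gap. *Fam190a* had the least, 1.74% in 2 gaps. *Agbl4*, a tubulin carboxypeptidase gene, had 6.33%, and *Sgcd*, which encodes the muscle membrane protein delta-sarcoglycan, 7.13%. *Ctnna2* and *Lrrc4c* were also among the 10, with the values given above.

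The 10 genes of at least 10 kb with the largest share of their span in a gap were mid-sized and of varied function. *Dio2* (chr12:91962994-91976878), the deiodinase that activates thyroid hormone, had 98.7% of its 13.9 kb in a gap. *Trim5*, an antiviral restriction factor, had 98.4%, and *Gabra6*, a GABA-A receptor subunit, 98.3%. In all 3 the gap ended just short of the transcription start. Only 1.30% (*Dio2*), 1.63% (*Trim5*) and 1.68% (*Gabra6*) of the span was left in the KO LAD. Borders are set at GATC sites, so on which side of the border these 3 starts lay is not resolved. *Ifi44*, an interferon-induced gene, had 91.1% in a gap and *Crx*, the photoreceptor transcription factor, 81.4%, and in these 2 the start itself was in the gap. The other 5 kept their start in a KO LAD, namely *Sult2a6* (89.5%), a hydroxysteroid sulfotransferase, *Vmn2r106* (85.1%), *Zfp558* (83.6%), *Chrna6* (82.8%), a nicotinic receptor subunit, and *1700011H14Rik* (82.4%). For *Crx*, *Trim5* and *1700011H14Rik* the gap was a lost stretch at an end of the WT LAD, where losses were more frequent, and not a break inside it.

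Of the genes singled out so far, *Ifi44*, *Crx* and *Cntnap5a* had their start in a KO gap. The 200 bases before each start are shown on the strand of the gene (mm9), with any GATC in capitals, since GATC sites are what DamID can read there.
Ifi44 (chr3:151412912-151413111, minus strand): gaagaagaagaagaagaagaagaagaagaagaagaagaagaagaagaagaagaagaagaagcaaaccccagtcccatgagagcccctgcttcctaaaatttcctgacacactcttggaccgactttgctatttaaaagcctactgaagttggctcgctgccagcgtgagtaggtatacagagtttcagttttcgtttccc
Crx (chr7:16465318-16465517, minus strand): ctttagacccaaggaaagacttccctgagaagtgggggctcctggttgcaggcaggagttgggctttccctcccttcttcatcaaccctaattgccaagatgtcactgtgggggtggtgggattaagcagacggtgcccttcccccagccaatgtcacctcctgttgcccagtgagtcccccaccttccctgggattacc
Cntnap5a (chr1:117581133-117581332, plus strand): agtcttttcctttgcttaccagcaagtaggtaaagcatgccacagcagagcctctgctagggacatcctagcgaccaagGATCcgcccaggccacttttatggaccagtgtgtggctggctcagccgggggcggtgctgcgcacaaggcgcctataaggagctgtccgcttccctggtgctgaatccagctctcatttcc
The gaps around these starts were 22.7 kb (*Ifi44*), 34.0 kb (*Crx*) and 9.90 kb (*Cntnap5a*) long. That of *Crx* was a lost stretch reaching the end of its LAD. The windows of *Ifi44* and *Crx* held no GATC and that of *Cntnap5a* held 1, and the *Ifi44* window began with a run of GAA repeats. A GATC was found in this window for 30.2% of the 106 starts in a gap, 34.3% of the 1827 megabase LAD starts in a KO LAD and 32.9% of all protein-coding starts.

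The gene families behind these counts were placed by lists of symbols. Of 1113 olfactory receptor genes, 757 (68.0%) had their start in a megabase LAD, in 18 LADs, and 32 of the 757 (4.23%) were in a KO gap. For vomeronasal receptors it was 150 of 331, with 8 in a gap (5.33%), among them *Vmn1r172*, *Vmn1r68* and *Vmn2r20*. Bitter taste receptors had 24 of 35, all in 1 LAD, with *Tas2r102* and *Tas2r124* in a gap. Killer cell lectins, receptors of natural killer cells, had 19 of 28 in 1 LAD and none in a gap. Such families hold near-identical copies, and how reads were shared between copies is not known from these lists.

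Lists of neuronal genes were smaller. Of 55 annotated genes for synaptic adhesion and axon guidance, 34 had their start in a megabase LAD, spread over 29 LADs, and 2 of these starts, of *Cntnap5a* and *Sema3a*, were in a gap. *Sema3a* (477 kb), a repulsive axon guidance cue, had 11.5% of its span in gaps. Ligand-gated channels for glutamate and GABA had 18 of 37, with only *Gabrg1* having its start in a gap. Classical cadherins had 8 of 23, and *Cdh10* and *Cdh12* were in a gap, with 23.6% and 8.57% of their spans lost. Non-clustered protocadherins had 2 of 12, *Pcdh8* and *Pcdh18*. The median share of span in gaps was 6.39% for the adhesion and guidance genes, 7.46% for the channels and 7.30% for the cadherins.

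Several lists had few or no starts in megabase LADs. No start of the 98 cytochrome P450 genes, 20 UDP-glucuronosyltransferase genes, 21 major urinary protein genes or 26 serpin b genes was in one, although 29, 6, 15 and 17 of them lay in WT LADs of some length. The same was true of 76 ribosomal protein genes, none of which lay in any WT LAD. Of 15 Slco transporters only *Slco6d1* was in a megabase LAD, of 53 defensins *Defb18* and *Defb41*, and of 371 Zfp zinc finger genes 12, with *Zfp551* and *Zfp808* in a KO gap.

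Markers of liver cell types were checked by position, since the lists hold no expression. None of 26 annotated hepatocyte marker genes (such as *Alb*, *Ttr* and *Hnf4a*) had its start in a megabase LAD, and 1 was in a WT LAD of any length. Of 5 Kupffer cell markers, *Timd4* and *Emr1* (F4/80), genes of resident macrophages, started in megabase LADs. *Timd4* lay wholly in a KO LAD, whereas *Emr1* kept its start in a KO LAD but had 35.9% of its 125 kb, with 9 of 22 exons, in 1 gap. None of the 4 endothelial, 4 stellate or 4 cholangiocyte markers was in a megabase LAD.

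**Figure D4:**
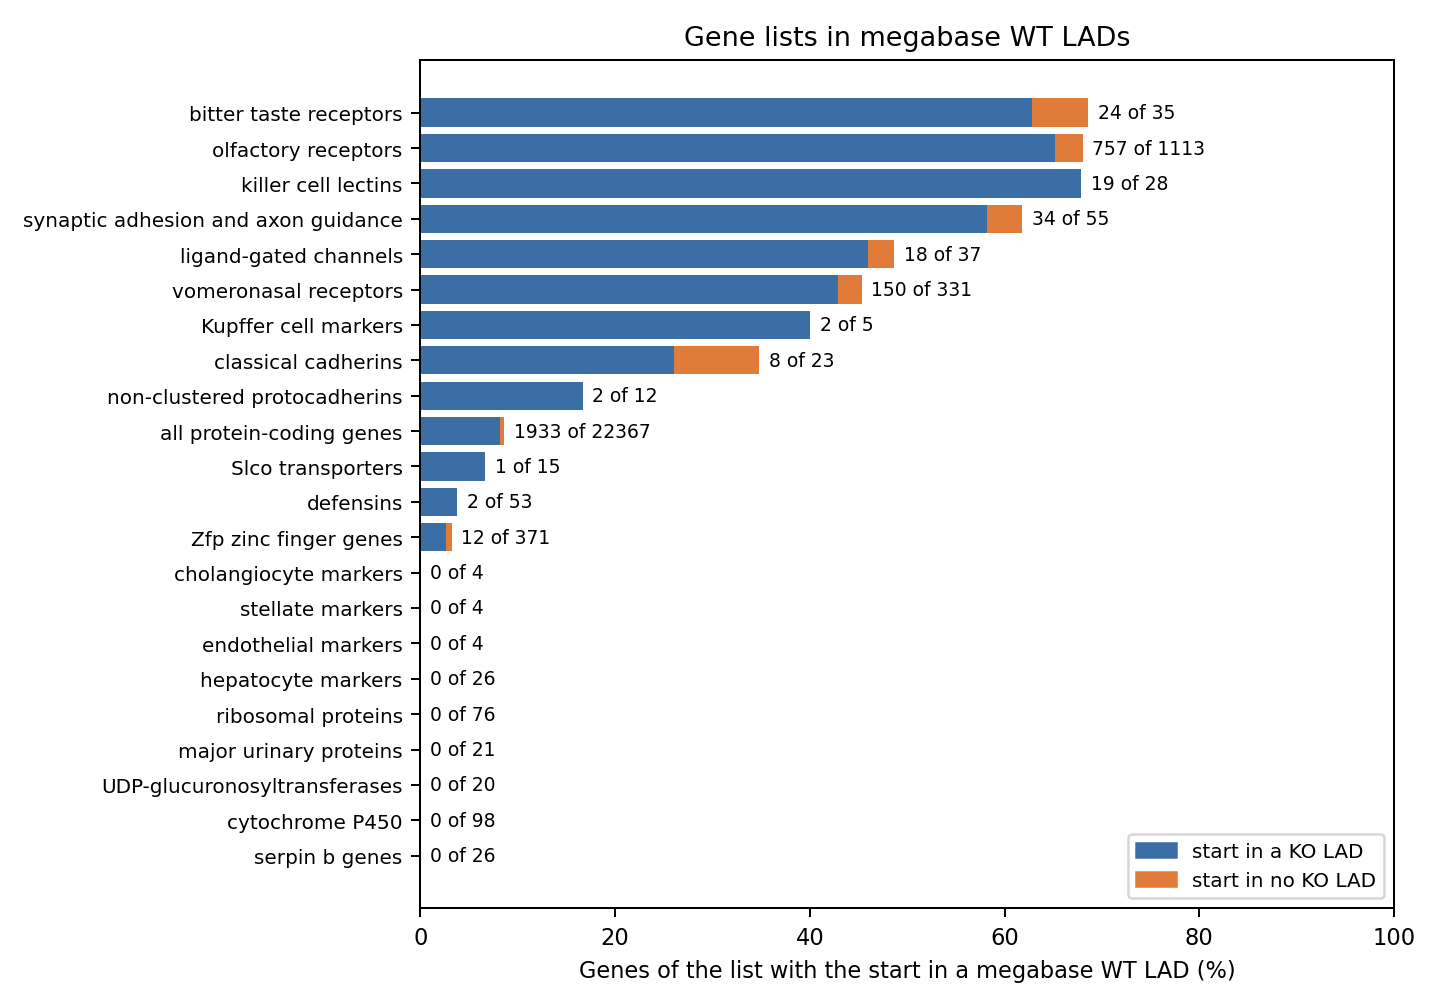
Share of the genes of each list with the transcription start in a megabase WT LAD (%), split by whether the start lay in a KO LAD (blue) or in none (orange), with the number of such genes of all annotated genes of the list beside each bar. Bitter taste, olfactory and killer cell lectin genes reach 67.9% to 68.6% against 8.64% of all protein-coding genes, and 9 lists have none.

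In base composition the megabase LADs were the extreme of the WT LADs. Their GC content was 38.2% (35.3% to 45.6% for single LADs), compared with 39.8% in LADs of 500 to 1000 kb, 40.7% in those of 100 to 500 kb, 41.8% in those of 10 to 100 kb and 41.8% over all chromosomes. CpG sites numbered 5.45 per kb against 8.34 over all chromosomes. GATC sites, in contrast, were about as dense as over all chromosomes, at 2.57 per kb against 2.51. Among the WT LAD classes this was still the lowest density. The others had 2.61 (500 to 1000 kb), 2.61 (100 to 500 kb) and 2.65 per kb (10 to 100 kb). Lost share and GC content showed no steady order among the megabase LADs. It was 7.55% in the 47 LADs below 37% GC, 6.20% in the 102 with 37% to 38%, 6.97% in the 76 with 38% to 39%, 7.65% in the 77 with 39% to 41% and 10.3% in the 20 with 41% or more.

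KO gaps and KO pieces of the same LADs were nearly alike in GC content but not in GATC density. All lost bases together had a GC content 0.04 percentage points lower than the pieces (a difference of -0.04), and the interior gaps alone were at 38.03% against 38.2%. GATC sites were sparser, at 2.21 per kb in interior gaps and 2.60 per kb in pieces, and the density was lower in the gaps in 304 of the 320 megabase LADs that had any, with a median difference of -0.39 per kb. GC content was lower in the gaps in 214 of the 320. The same order of GATC density was present in the other classes, at 2.30 against 2.64 per kb (500 to 1000 kb), 2.37 against 2.65 (100 to 500 kb) and 2.41 against 2.70 (10 to 100 kb). A gap contained a median of 25 GATC sites (range 7 to 325).

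**Figure D5:**
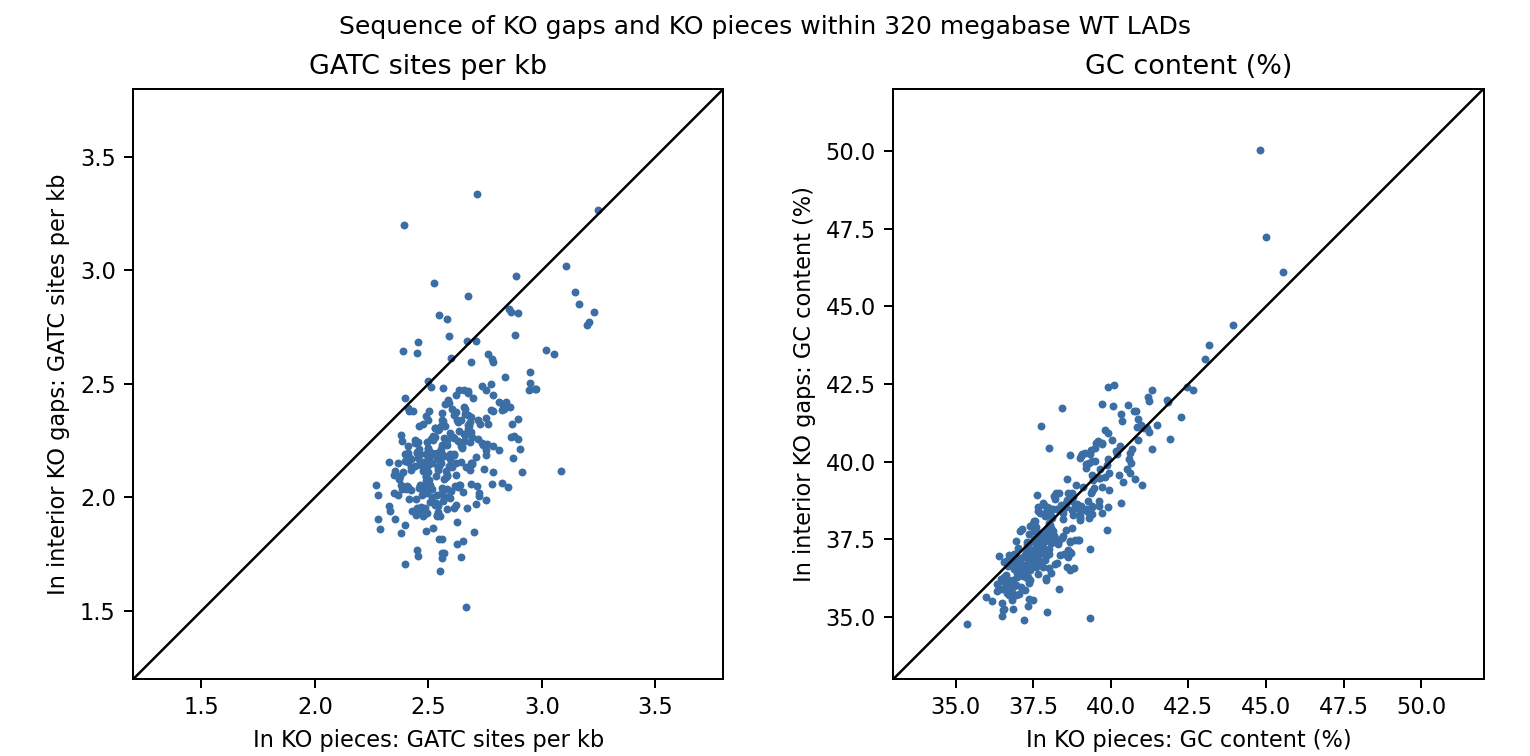
GATC sites per kb (left) and GC content in % (right) of the interior KO gaps (vertical axis) against the KO pieces (horizontal axis) of the same LAD, 1 point for each of the 320 megabase LADs with an interior gap, with the line of equality. In 304 LADs the point lies below the line for GATC, and in 214 for GC content.

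Sparse GATC sites leave long fragments. Fragments of over 2 kb between neighbouring GATC sites made up 9.85% of the bases of interior gaps and 5.67% of those of the pieces, and 425 of the 2865 gaps had more than 25% of their bases in such fragments. The difference was smaller in long gaps, with 8.76% in the gaps of at least 20 kb and 6.71% in those of at least 50 kb, where the GATC density was 2.37 per kb. The longest such fragment in an interior gap was 6.89 kb, chr3:43740806-43747695, within a gap of 19.1 kb, and the longest in a KO piece was 7.503 kb, chr7:12595919-12603425. The middle 60 bases of both, on the plus strand, show what such stretches look like.
In a gap (chr3:43744219-43744278): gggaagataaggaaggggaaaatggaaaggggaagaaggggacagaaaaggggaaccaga
In a piece (chr7:12599640-12599699): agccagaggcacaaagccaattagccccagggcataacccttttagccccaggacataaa
The first is made almost only of purines, and the fragment had a GC content of 52.05%. The second had 58.6%. The part of GATC spacing in where the KO gaps lay was not tested.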

How the data were processed

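The authors mapped DamID reads to mm9, took the log2 ratio of LaminB1-Dam to Dam for each *DpnI* fragment, and defined LADs with DNAcopy (default settings). The submitters' processing notes also name BWA and limma. The deposited values used here are other than expression values: the start and end of each LAD in bases, with no score, signal or depth. Differential regions (DRs) are LADs of one genotype outside those of the other, at least 10 kb long, and all 2053 lost stretches of this length in megabase LADs were found in the deposited WT-only list with the same borders.

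Positions are 1-based on NCBIM37 (the same assembly as mm9) with its GENCODE annotation, and no LAD ran past a chromosome end. A start is the outermost 5′ base of a gene, exons are merged over transcripts, and *Flrt3* and *Trf* are annotated as 2 genes each. Intervals were computed with Python 3.11.15, numpy 2.4.6, scipy 1.17.1 and pysam 0.24.0, tested on simulated data (0 errors), and drawn with matplotlib 3.10.9.

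Named regions were the 10 longest LADs, the 5 with the highest and lowest share in KO LADs, the 5 longest gaps and pieces, and 3 LADs on each side of the limit. Named genes were those over 200 kb in the 10 longest LADs, those in the 5 longest gaps, the 10 longest wholly inside, the 10 of at least 10 kb with the largest share in gaps, and listed families; 1 of these genes is not reported here. The 3 LADs with the most starts and the 2 longest GATC fragments were chosen after seeing values. Members and lists were chosen with earlier results of these data known. A share of starts was counted as unchanged within its 95% interval, other values within a factor of 1.5.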

Additional observations from a re-analysis of the deposited data

How the results depend on the processing

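Across 34 alternatives for 7 results, 25 values counted as unchanged. Only the GC difference could change sign, and it kept its sign in each alternative. The lost share of megabase LADs stayed between 5.76% (gaps of at least 10 kb) and 9.20% (WT LADs joined across gaps of up to 20 kb first, with the bridged bases counted as LAD) in 8 of its 9 alternatives, and was 2.77% with KO LADs joined across gaps of up to 20 kb, an alternative chosen after seeing the data, which gave 10.3% for LADs of 100 to 500 kb. The median of 8 KO pieces became 5 for WT LADs of at least 500 kb, 13 for those of at least 2 Mb, 2 with KO LADs joined across 20 kb and 1 across 50 kb, as the larger span or the joining itself implies. Genes per Mb rose to 6.97 with all annotated genes, since more genes were counted. The share of starts in a KO gap was 4.14% when only gaps of at least 10 kb counted. The GC difference of -0.04 percentage points was -0.19 for gaps with a KO piece on both sides, which leaves out the GC-richer end stretches (40.7% GC). No paired analysis was possible because each genotype had 1 library pair and no test was made. With no depth per region in the lists, the precision of single borders and gaps cannot be given.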
